A study of Saccharomyces cerevisiae with 27 samples.

Results

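CIT2, ICL1, MLS1, MDH3, MDH2, FBP1, PCK1 and SFC1 are 8 genes of the glyoxylate cycle and gluconeogenesis of budding yeast, Saccharomyces cerevisiae. They were taken by systematic name from the 7122 gene IDs of the deposited tables, with earlier results of these data known. All 8 were among the 6386 genes with enough counts to be tested. The glyoxylate cycle was represented by CIT2 (YCR005C, chrIII:120946-122328), the peroxisomal citrate synthase, ICL1 (YER065C, chrV:285241-286914), isocitrate lyase, MLS1 (YNL117W, chrXIV:406358-408022), malate synthase, and MDH3 (YDL078C, chrIV:315357-316388), the peroxisomal malate dehydrogenase. Gluconeogenesis was represented by MDH2 (YOL126C, chrXV:81787-82920), the cytosolic malate dehydrogenase, FBP1 (YLR377C, chrXII:873746-874792), fructose-1,6-bisphosphatase, and PCK1 (YKR097W, chrXI:631152-632801), phosphoenolpyruvate carboxykinase. SFC1 (YJR095W, chrX:609773-610741) encodes the carrier that exchanges succinate for fumarate across the inner mitochondrial membrane. Coordinates are those of the coding sequences in the R64 assembly, each on a chromosome of its own, and none of the 8 overlaps another gene annotated there.

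The glyoxylate cycle joins acetyl units into succinate and malate without losing carbon as carbon dioxide, because isocitrate lyase and malate synthase bypass the decarboxylating steps of the citrate cycle. Gluconeogenesis turns the resulting oxaloacetate into phosphoenolpyruvate and then into hexose phosphates. Both serve yeast growing on ethanol, acetate or fatty acids. On glucose many genes of these pathways are held down by the repressor Mig1. When glucose runs out the kinase Snf1 acts through the activators Cat8, Sip4 and Adr1. CIT2 is the textbook target of retrograde signaling, in which Rtg1 and Rtg3 respond to the state of the mitochondria through Rtg2.

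The study compared 3 strains whose chromosomal ALA1 gene, which encodes alanyl-tRNA synthetase (AlaRS), was deleted and replaced by a plasmid copy. The WT strain has wild-type AlaRS, the C719A mutant is defective in editing, the removal of serine or glycine wrongly joined to alanine tRNA, and the G906D mutant is defective in aminoacylation. Both mutants were made by shuffling a pRS315 plasmid with a LEU2 marker into a BY4741 ala1Δ strain, and how many clones were used was not given in the sources used here. Counts per gene cannot show the point mutations, so these rest on the labels. All cells grew in YPD, a rich medium with glucose, to log phase at 30 °C and were then moved to 37 °C. Samples were drawn before the shift (0 h) and 1 h and 2 h into it, and 3 biological replicates (A, B and C) stood for each of the 9 groups. No sample came from a culture kept at 30 °C for the same hours. The effect of heat and that of longer growth in the medium therefore cannot be told apart. A response to heat means below the change from 0 h. A culture was measured as a whole, so a change in every cell and a change in the share of cells that express a gene cannot be told apart. Levels are written in this order of replicates as normalized CPM, counts scaled to the library total and the TMM factor. Differences are log2 fold changes ± SE from edgeR's quasi-likelihood test of 3 libraries against 3, with the spread estimated over all 9 groups. A difference of heat responses takes the 0 h groups too. The SE is the absolute log2 fold change divided by the square root of the test's F statistic. The 95% intervals use this SE and 18 degrees of freedom. The p-values are adjusted by Benjamini-Hochberg over all 6386 genes and called at 0.05. An exact permutation test of 3 values against 3 cannot go below p = 0.1, and was therefore not used for single genes.

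The 27 libraries held 14471528 to 23057641 counts (median 17523615), and the lowest count of any member was 88, for SFC1. URA3 and MET17, which are deleted or defective in the parent, had 0 counts in every library. HIS3, also mutated in the parent, had 535 to 2049 counts. LEU2 is the marker of the mutants' plasmid, and the paper lists a pRS315 plasmid with LEU2 and wild-type AlaRS as well. LEU2 had 44963 to 66335 counts in the unheated C719A libraries. It had 8564 to 12680 in the unheated WT and 11010 to 14590 in the unheated G906D libraries. ALA1 had 61262 to 88037 counts in the C719A libraries against 24387 to 46711 in those of the other strains. The α-specific gene STE3 had 1740 to 7716 counts and the a-specific MFA1 44 to 1277, although BY4741 is a MATa strain. In the G906D strain the median of 528 genes of chromosome VII was 0.91, 0.96 and 0.94 above the WT on the log2 scale at 0 h, 1 h and 2 h, so HXK2, MIG1, MIG2, SNF4, SIP2 and RTG2, which lie there, are given below with that mark. No member lies on chromosome VII. In each mutant the mutation comes together with another difference, the ALA1 level in the C719A strain and chromosome VII in the G906D strain. Their parts in the differences of the members from the WT cannot be told apart. Before heat, WT replicate B stood above replicates A and C in the summed level of 12 other glucose-repressed genes (14335 CPM against 7547 and 10558), and C719A replicate B stood above its group likewise (12558 CPM against 8981 and 9016). CIT2, MDH2 and PCK1 were likewise highest in replicate B in both strains, and the part of the culture's state in their differences before heat was not tested.

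The upstream regions are shown because 7 of the 8 genes share a short element there. The core of the carbon source response element, which Cat8 and Sip4 bind (CC, any base, T, any 4 bases, then CCG), was found on either strand within 600 bases before the start codon of ICL1 (1 match), MLS1 (2), MDH3 (1), MDH2 (3), FBP1 (1), PCK1 (3) and SFC1 (1), against 8.61% of 6005 genes in R64. The element was first described on promoters of this group, ICL1 and FBP1 among them, so its presence in them is known. In the windows below, written 5′ to 3′ on the coding strand from RefSeq R64, capitals mark the matches to the element or to its reverse complement.
ICL1 (chrV:287277-287337, minus strand): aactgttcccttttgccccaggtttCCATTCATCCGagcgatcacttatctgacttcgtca
MLS1 (chrXIV:405802-405893, plus strand): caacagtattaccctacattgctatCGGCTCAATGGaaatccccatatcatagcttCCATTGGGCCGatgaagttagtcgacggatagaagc
MDH3 (chrIV:316678-316738, minus strand): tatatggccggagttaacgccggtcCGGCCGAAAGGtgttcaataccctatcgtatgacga
MDH2 (chrXV:83262-83378, minus strand): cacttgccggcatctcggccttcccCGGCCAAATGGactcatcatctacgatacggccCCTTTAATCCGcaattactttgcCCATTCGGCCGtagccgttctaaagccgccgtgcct
FBP1 (chrXII:875261-875321, minus strand): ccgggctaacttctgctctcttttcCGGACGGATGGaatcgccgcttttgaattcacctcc
PCK1 (chrXI:630565-630625, plus strand): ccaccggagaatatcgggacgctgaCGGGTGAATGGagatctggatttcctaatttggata
PCK1 (chrXI:630646-630706, plus strand): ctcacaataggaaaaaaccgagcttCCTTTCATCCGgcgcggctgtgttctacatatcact
PCK1 (chrXI:630765-630825, plus strand): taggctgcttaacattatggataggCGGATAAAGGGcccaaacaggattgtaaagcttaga
SFC1 (chrX:609173-609228, plus strand): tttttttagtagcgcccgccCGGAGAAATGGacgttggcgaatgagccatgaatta
CIT2 had no match to these letters. It had 3 matches to the R box GTCAC, the letters that Rtg1 and Rtg3 bind, which are in capitals in the window below. The R box is short and stood in 49.2% of all 6005 windows, and in those of ICL1, MDH2 and SFC1 too. Part of the CIT2 window lies in the open reading frame YCR006C.
CIT2 (chrIII:122495-122698, minus strand): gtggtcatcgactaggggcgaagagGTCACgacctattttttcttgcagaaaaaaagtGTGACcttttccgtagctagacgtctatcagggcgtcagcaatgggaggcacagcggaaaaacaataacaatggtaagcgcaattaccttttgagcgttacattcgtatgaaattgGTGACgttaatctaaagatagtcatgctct
Among other motifs, searched on both strands, the Mig1 box (G or C, then C or T, then GGGG) stood in 6 of the 8 windows, against 27.8% of all windows. The stress element AGGGG stood in 5, against 39.7%, and the Gcn4 site TGACTC in 3, against 15.3%. A heat shock element of 3 perfect units (TTC and GAA in turn, 2 bases apart) stood in none of the 8 and in 1.7% of all windows. In the 8 windows no match of the Mig1 box overlapped a match of the stress element.

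The members differed widely in level. Per length, as the authors' FPKM (mean ± SD, n = 3), the unheated WT had MDH2 at 268 ± 109 and MDH3 at 260.0 ± 33.98, which overlapped, then CIT2 at 163 ± 44, ICL1 at 65.3 ± 5.7, PCK1 at 17.7 ± 5.7 and FBP1 at 15.8 ± 1.6, which overlapped, and SFC1 at 8.08 ± 1.13 and MLS1 at 6.68 ± 1.44, which overlapped too. Malate synthase thus had the lowest FPKM, and it did so in each of the 9 combinations. After 2 h at 37 °C, CIT2 (1273 ± 245) and MDH2 (1032 ± 129) led in the WT and overlapped, MDH3 (359.8 ± 22.8) came next, and the order ICL1, PCK1, FBP1, SFC1, MLS1 followed without overlap. In the C719A strain the order at 2 h was the same, with CIT2 at 1021 ± 214 and MDH2 at 881 ± 20 overlapping. In the G906D strain MDH2 (733 ± 91) stood beside CIT2 (692 ± 129), and SFC1 (25.7 ± 4.1) stood above FBP1 (20.4 ± 2.5).

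**Figure D1:**
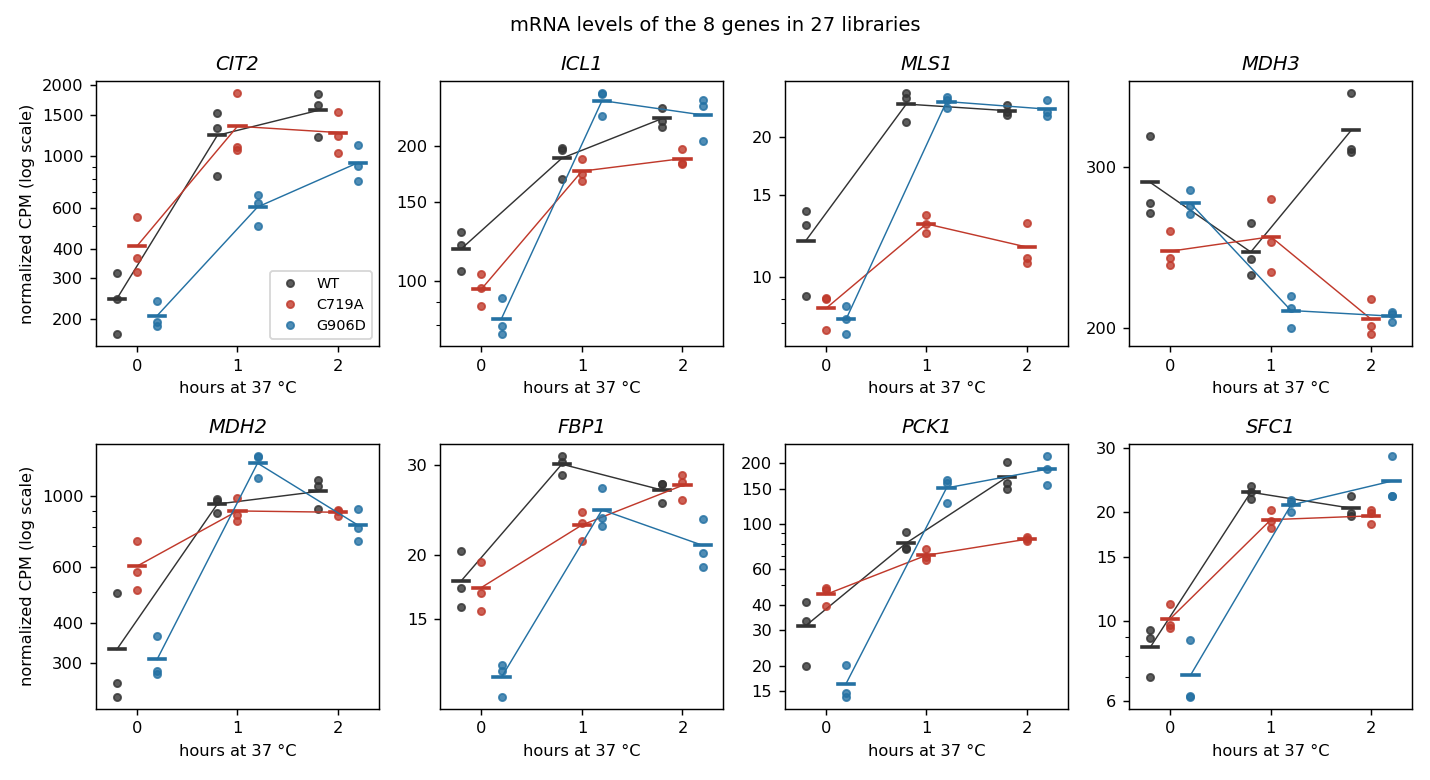
Normalized CPM (log scale) of the 8 genes against the hours at 37 °C, with 1 point per library, a bar at the mean of 3 replicates and lines joining the means of the WT (grey), C719A (red) and G906D (blue) strains. All genes but MDH3 rose with heat in every strain, and the red points of MLS1 at 1 h and 2 h and of PCK1 at 2 h lie below all grey and blue ones.

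The first question was how the genes changed after the shift to 37 °C in each strain. In the WT, 7 of the 8 rose within 1 h and MDH3 fell, so that all 8 were called, against 61% of all genes (30.8% higher and 30.2% lower). After 2 h all 8 were higher than before heat, against 69.6% of genes called (35.7% higher and 33.9% lower), with a median of 1.12 on the log2 scale against 0.02 for all genes. From 1 h to 2 h, 3 rose further (ICL1, MDH3 and PCK1) and 5 were not called, against 24% of genes called (10.4% higher and 13.6% lower). In C719A cells 7 rose within 1 h, against 66% of genes called in either direction (33.9% higher and 32% lower), and the median of the members was 0.62. In the G906D strain 7 rose and MDH3 fell within 1 h, against 71.4% of genes called (37.6% higher and 33.8% lower), and the median was 1.56. At 2 h against 0 h, 7 rose and MDH3 fell in each mutant, against 67.1% of genes called (34.8% higher and 32.3% lower) in C719A cells and 67% in G906D cells (35% higher and 32% lower), with medians of 0.785 and 1.4998. From 1 h to 2 h only 1 member was called in the C719A strain, MDH3, which fell, against 15.2% of genes called (7.74% higher and 7.5% lower), and only MDH2, which fell, in the G906D strain, against 16.1% (7.83% higher and 8.3% lower). The libraries before and after 1 h did not overlap for 8 members in the WT (58.8% of all genes), 7 in the C719A (72.4%) and 8 in the G906D strain (73.2%). Those of 0 h and 2 h did not overlap for 7 (67.3%), 8 (75.7%) and 8 (75.2%), and those of 1 h and 2 h for 4 (40.6%), 3 (45.3%) and 3 (32.9%).

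**Figure D2:**
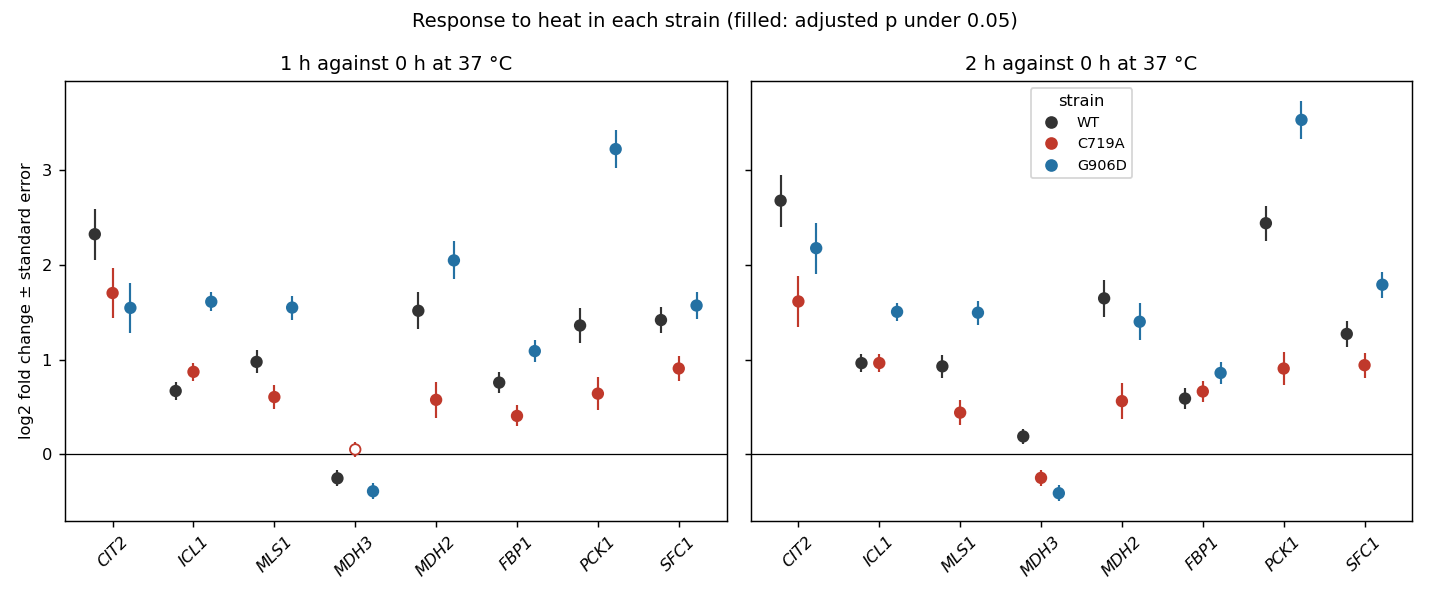
Log2 fold change ± SE of each gene after 1 h (left) and 2 h (right) at 37 °C against 0 h, in the WT (grey), C719A (red) and G906D (blue) strains, 3 libraries against 3. Filled points passed an adjusted p of 0.05. PCK1 in the G906D strain has the highest point in both panels, and the points below 0 all belong to MDH3. Scaled by library size alone, these MDH3 values lie between 0.03 and 0.10, and none was called.

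Scaling bears on MDH3. TMM sets the median of all genes near 0, whereas scaling by library size alone moved that median by 0.29 at 1 h and 0.30 at 2 h against 0 h in the WT, by 0.28 and 0.36 in the C719A strain and by 0.53 and 0.52 in the G906D strain. The share of higher among all calls then went, at 1 h and 2 h, from 50.5% and 51.3% to 74.6% and 69% in the WT, from 51.5% and 51.9% to 70.9% and 73.8% in the C719A strain and from 52.6% and 52.2% to 78.1% and 81.2% in the G906D strain. From 1 h to 2 h it went from 50.8% to 69.8% in the C719A strain. The 7 other members were called higher at 1 h and 2 h in every strain under either scaling. The falls of MDH3 are falls relative to the median gene. Scaled by library size alone, their values were 0.035 in the WT and 0.10 in the G906D strain at 1 h. At 2 h they were 0.077 in the C719A and 0.072 in the G906D strain. None of these values was called, so under that scaling MDH3 showed no called change there.

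The second question was how the C719A strain differed from the WT. Before heat, the C719A strain had higher CIT2, MDH2 and PCK1 and lower ICL1, MLS1 and MDH3 than the WT, 6 of 8 called against 53.7% of all genes (27% higher and 26.7% lower). With these 2 groups fitted alone 3 were called, and MLS1 (-0.48), MDH3 (-0.25) and PCK1 (0.51) were not. After 1 h only MLS1 and FBP1 were called, both lower, against 35.8% of genes (17.3% higher and 18.4% lower). After 2 h, ICL1, MLS1, MDH3 and PCK1 were lower and none was higher, 4 called against 56.5% of genes (27.5% higher and 28.9% lower), with a median of -0.30 for the members and -0.03 for all genes. The libraries of the 2 strains did not overlap for 6, 3 and 5 members at 0 h, 1 h and 2 h, against 53%, 48.4% and 69.7% of all genes. Under library size alone the share of higher calls at 1 h was 34.7%, against 48.4% with TMM.

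The same question was asked of the G906D strain. Before heat, ICL1, MLS1, FBP1 and PCK1 were lower in the G906D strain than in the WT and none was higher, 4 called against 64.1% of all genes (30.9% higher and 33.2% lower), with a median of -0.39 for the members and -0.03 for all genes. Under library size alone 7 were called lower there, with MDH3, MDH2 and SFC1 added. After 1 h, CIT2 and FBP1 were lower and ICL1 and PCK1 higher, 4 called against 31.2% of genes (16.3% higher and 15% lower). After 2 h, CIT2, MDH3 and FBP1 were lower, 3 called against 65.1% of genes (31.9% higher and 33.2% lower). The libraries did not overlap for 3, 7 and 4 members at the 3 times, against 63%, 41.6% and 72.9% of all genes. Scaling by library size alone lowered the median of all genes in this strain to -0.37 at 0 h and -0.15 at 1 h and at 2 h, and the share of higher calls from 48.2% to 23.4% at 0 h, from 52.1% to 27.4% at 1 h and from 49% to 38.4% at 2 h.

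**Figure D3:**
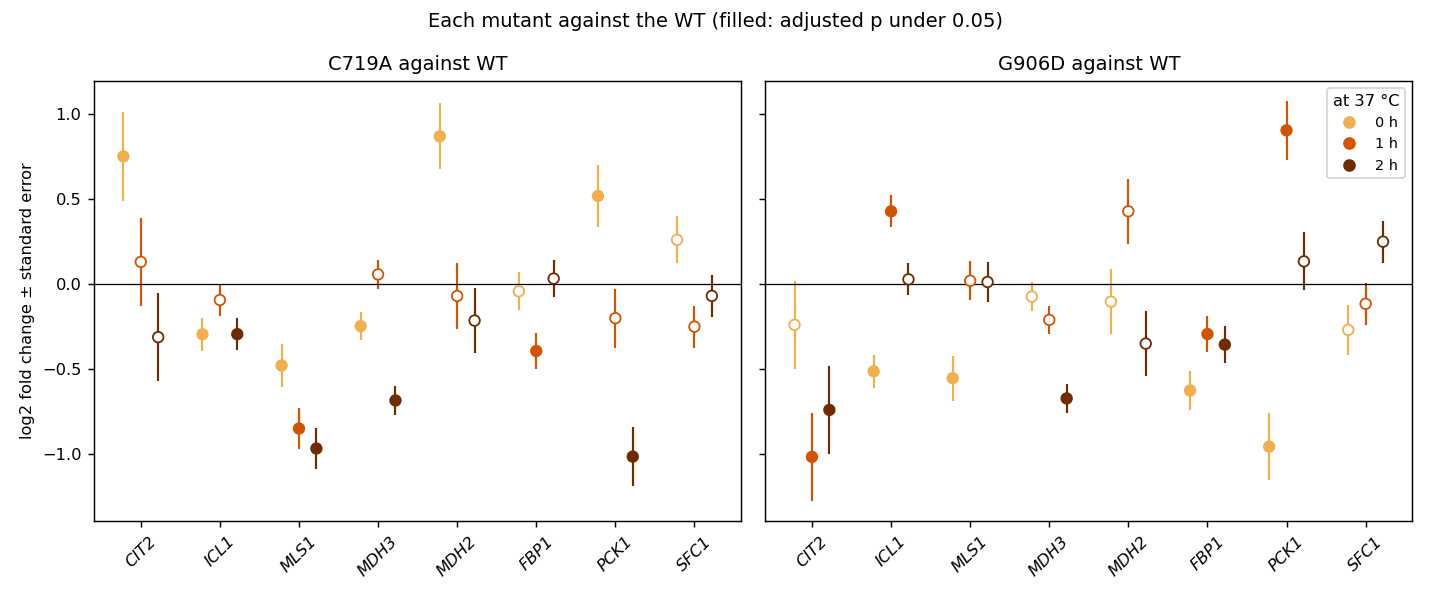
Log2 fold change ± SE of each gene in the C719A (left) and G906D (right) strains against the WT at 0 h, 1 h and 2 h at 37 °C (light to dark), 3 libraries against 3. Filled points passed an adjusted p of 0.05. MLS1 lies below 0 at all times in the C719A strain, and PCK1 changes side with time in both mutants.

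Set directly against each other, the mutants differed in 5 genes before heat, all higher in the C719A strain (CIT2, MDH2, FBP1, PCK1 and SFC1), against 41.8% of all genes called (21.6% higher and 20.2% lower). After 1 h, CIT2 and MDH3 were higher and ICL1, MLS1, MDH2 and PCK1 lower in the C719A strain, 6 called against 37.3% of genes (17.9% higher and 19.4% lower). After 2 h, FBP1 was higher and ICL1, MLS1, PCK1 and SFC1 lower, 5 called against 39.5% of genes (18.6% higher and 20.9% lower). The libraries of the mutants did not overlap for 6, 6 and 5 members, against 55.5%, 46.6% and 61.1% of all genes. Under library size alone the median of all genes was 0.30 at 0 h and 0.15 at 2 h, and 83.5%, 59.3% and 67.5% of calls were higher at the 3 times, against 51.6%, 48.1% and 47.1% with TMM. The largest differences at 0 h and 2 h were in PCK1, from 1.47 ± 0.19 at 0 h to -1.11 ± 0.17 at 1 h and -1.15 ± 0.17 at 2 h (adjusted p = 1.1e-06, 1.4e-05 and 7.4e-06).

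Whether the response to heat itself differed was tested as an interaction. The response of the C719A strain was below that of the WT at 1 h in MDH2, PCK1 and SFC1, 3 of 8 against 31.5% of all genes (15.3% higher and 16.2% lower), and at 2 h in CIT2, MLS1, MDH3, MDH2 and PCK1, 5 of 8 against 36.7% (18.6% higher and 18.2% lower). The response of the G906D strain was above that of the WT at 1 h in ICL1, MLS1 and PCK1, 3 of 8 against 29.4% (15.6% higher and 13.8% lower). At 2 h it was above in the same 3 genes and below in MDH3, 4 of 8 against 23.3% (12.7% higher and 10.6% lower). With the replicate letter as a block within each strain, only MDH2 remained called in the C719A strain at 1 h, and with the groups compared fitted alone none of the 3 was. Under library size alone, the median of all genes in the response of the G906D against that of the WT strain rose to 0.23 at 1 h and 0.24 at 2 h, and 85.9% and 85.5% of the calls were higher, against 53.1% and 54.4% with TMM.

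CIT2 makes citrate from acetyl-CoA and oxaloacetate in the peroxisome, the entry to the cycle. In the WT it was at 173, 315 and 245 CPM before heat, 1321, 822 and 1529 CPM after 1 h and 1836, 1199 and 1657 CPM after 2 h. C719A libraries had 366, 547 and 319.8 CPM, then 1095, 1856 and 1064 CPM and 1216, 1534 and 1024 CPM. G906D libraries had 195, 187 and 239 CPM, 502, 629 and 681 CPM and 1115, 907 and 783 CPM. Thus every C719A library was above every WT library before heat, and every G906D library was below every WT library at 1 h and at 2 h. CIT2 rose 5.004-fold in the WT within 1 h (2.32 ± 0.27, adjusted p = 1.2e-07), and 6.39-fold by 2 h.

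Before heat, CIT2 was 1.68-fold higher in C719A than in WT cells (0.75 ± 0.26, adjusted p = 0.018). That call was lost without C719A replicate B (0.49) or WT replicate A (0.55), the first being the library that stood high in the glucose-repressed genes. CIT2 in the G906D strain was 2.03-fold lower than in the WT at 1 h (-1.02 ± 0.26, adjusted p = 0.0039) and 1.67-fold lower at 2 h (-0.74 ± 0.26, adjusted p = 0.015). The call at 2 h was lost without G906D replicate C (-0.63) or WT replicate A (-0.61). Against the G906D strain, CIT2 in the C719A strain was 0.99 ± 0.26 higher on the log2 scale before heat and 1.15 ± 0.26 higher at 1 h (adjusted p = 0.0034 and 0.0011).

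The rise of CIT2 by 2 h was 1.61 ± 0.26 in the C719A strain and 2.68 ± 0.27 in the WT, and the responses differed by -1.06 ± 0.37 (adjusted p = 0.025). This difference was not called without C719A 0 h replicate B, C719A 2 h replicate A or C, WT 0 h replicate A or WT 2 h replicate A, with values from -1.04 to -0.80. The rise in the G906D strain was 1.55 ± 0.26 at 1 h, and its difference from the WT was -0.78 ± 0.37 (adjusted p = 0.11), which passed only without WT 0 h replicate B (-1.004). How reads that match both CIT2 and its mitochondrial paralog CIT1 were assigned was not given in the sources used here. CIT1 itself was -0.76 ± 0.14 in the C719A strain against the WT before heat, opposite to CIT2, and 0.086 ± 0.14 in WT cells 1 h into the heat (adjusted p = 6.1e-05 and 0.60).

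ICL1 splits isocitrate into succinate and glyoxylate, the step that commits carbon to the bypass. Its levels in the WT were 105, 129 and 120.04 CPM before heat, 198, 169 and 196 CPM after 1 h and 243, 227 and 220.3 CPM after 2 h. C719A libraries had 87.8, 104 and 96.6 CPM, 173, 167 and 187 CPM and 182, 183 and 197 CPM. G906D libraries had 91.8, 76.2 and 79.5 CPM, 233, 262 and 261 CPM and 252, 245 and 205 CPM. All G906D libraries were below all WT libraries before heat and above them at 1 h, and all C719A libraries were below all WT libraries before heat and at 2 h. ICL1 was 1.43-fold lower in the G906D strain than in the WT at 0 h (-0.51 ± 0.10, adjusted p = 7.1e-05) and 1.34-fold higher at 1 h (0.43 ± 0.095, adjusted p = 0.0011).

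The rise of ICL1 within 1 h was 3.05-fold in the G906D strain and 1.59-fold in the WT, and the responses differed by 0.94 ± 0.14 at 1 h and 0.54 ± 0.14 at 2 h (adjusted p = 7.4e-05 and 0.0051). In the C719A strain the rise by 2 h was 0.96 ± 0.10, beside 0.96 ± 0.10 in the WT, and the difference of 0.00094 ± 0.13 had a 95% interval from -0.28 to 0.28. Its level there was lower than in the WT at 0 h (-0.30 ± 0.10, adjusted p = 0.012) and at 2 h (-0.30 ± 0.095, adjusted p = 0.01). The call at 0 h was lost without C719A replicate A (-0.24) or WT replicate B (-0.23). At 1 h and 2 h, ICL1 was lower in the C719A than in the G906D strain (-0.52 ± 0.10 and -0.32 ± 0.10, adjusted p = 9.3e-05 and 0.0087), the latter not called under library size alone (-0.19) or without G906D replicate A (-0.26). Before heat that difference was 0.22 ± 0.10 and was called without C719A replicate A (0.28) or G906D replicate A (0.30), by DESeq2 (0.24) and under library size alone (0.51). The further rise in the WT from 1 h to 2 h, 0.29 ± 0.095 (adjusted p = 0.027), was not called without WT 1 h replicate A (0.33) or B (0.22) or WT 2 h replicate A (0.25), or with the 2 groups fitted alone (0.28).

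MLS1 joins glyoxylate and acetyl-CoA into malate, and after heat its level in the C719A strain was apart from both others. In the WT it was at 9.11, 12.9 and 13.9 CPM before heat, 24.3, 21.5 and 24.8 CPM after 1 h and 23.4, 22.7 and 22.2 CPM after 2 h. The C719A libraries had 9.04, 7.73 and 8.97 CPM, 13.01, 13.6 and 12.5 CPM and 10.98, 13.1 and 10.7 CPM. The G906D libraries had 7.56, 8.67 and 8.15 CPM, 24.02, 24.3 and 23.1 CPM and 22.6, 22.2 and 24.03 CPM. All C719A libraries were below all WT libraries at each time, whereas the G906D libraries were below them only before heat and mixed with them after. MLS1 was 1.40-fold lower in the C719A strain than in the WT at 0 h, 1.80-fold at 1 h and 1.96-fold at 2 h (-0.48 ± 0.13, -0.85 ± 0.12 and -0.97 ± 0.12, adjusted p = 0.0031, 4.7e-06 and 3.4e-07). Against the G906D strain it was -0.87 ± 0.12 at 1 h and -0.98 ± 0.12 at 2 h (adjusted p = 1.8e-06 and 3.8e-07). Before heat it was 0.075 ± 0.13 (adjusted p = 0.69), and 0.36 and called under library size alone.

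The heat response of MLS1 was 0.98 ± 0.12 in the WT, 0.61 ± 0.13 in the C719A and 1.55 ± 0.13 in the G906D strain within 1 h. The G906D strain, which started 1.47-fold below the WT (-0.56 ± 0.13, adjusted p = 7.6e-04), rose more than the WT by 0.57 ± 0.18 at 1 h and 0.57 ± 0.18 at 2 h (adjusted p = 0.018 and 0.021). These calls were lost at 1 h without WT 0 h replicate C (0.45) or WT 1 h replicate B (0.51), and at 2 h without G906D 0 h replicate A (0.51), G906D 2 h replicate C (0.53) or WT 0 h replicate C (0.44). At 2 h the response of the C719A strain differed from that of the WT by -0.49 ± 0.18 (adjusted p = 0.033), and this was lost without C719A replicate A or C of 0 h or of 2 h, or without WT 0 h or 2 h replicate A, where the values ran from -0.47 to -0.32. At 1 h it was -0.37 ± 0.18 (adjusted p = 0.11), called only without WT 0 h replicate C (-0.49). With the groups compared fitted alone, the 3 called differences of MLS1 in the response were 0.52 and 0.54 for the G906D strain and -0.45 for the C719A strain, and none was called.

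MDH3 interconverts malate and oxaloacetate in the peroxisome and returns NADH made by fatty acid oxidation to NAD. It was the member that did not move with the others. In the WT it was at 268, 274 and 324 CPM before heat, 229, 238 and 261 CPM after 1 h and 361, 312 and 314 CPM after 2 h. The C719A libraries had 255, 238 and 235 CPM, 230.2, 277 and 249 CPM and 215, 201 and 197 CPM. G906D libraries had 272, 283 and 266 CPM, 217, 210.5 and 200.05 CPM and 203, 207 and 208 CPM. At 2 h the WT libraries lay between 312 and 361 CPM and the 6 mutant libraries between 197 and 215 CPM, without overlap. MDH3 was then 1.61-fold lower in the C719A strain (-0.69 ± 0.084, adjusted p = 2.5e-07) and 1.60-fold lower in the G906D strain (-0.67 ± 0.084, adjusted p = 2.2e-07). The mutants differed at 2 h by -0.012 ± 0.084, with a 95% interval from -0.19 to 0.16.

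Several smaller changes of MDH3 were lost without single libraries. Before heat it was -0.25 ± 0.084 in the C719A strain against the WT (adjusted p = 0.015), not called without WT replicate C (-0.16) or C719A replicate C (-0.23). Its change in the WT was -0.25 ± 0.083 within 1 h, 0.44 ± 0.083 from 1 h to 2 h and 0.19 ± 0.083 by 2 h (adjusted p = 0.011, 0.001 and 0.046). The change within 1 h was lost without WT 0 h replicate C (-0.16) or WT 1 h replicate A (-0.21) or with the 2 groups fitted alone (-0.24). That by 2 h was lost without WT 0 h replicate A (0.14) or B (0.15) or WT 2 h replicate A (0.12) and with DESeq2 (0.16), and the groups overlapped. By 2 h the C719A strain was at -0.25 ± 0.084 and the G906D strain at -0.41 ± 0.084 against 0 h (adjusted p = 0.012 and 1.4e-04), the first lost without C719A 0 h replicate A (-0.21). The responses by 2 h differed from that of the WT by -0.44 ± 0.12 and -0.60 ± 0.12 (adjusted p = 0.0056 and 7.5e-04). From 1 h to 2 h MDH3 fell in the C719A strain (-0.30 ± 0.084, adjusted p = 0.017), which was lost without C719A 1 h replicate B (-0.23) or C719A 2 h replicate B (-0.29) or C (-0.27).

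At 1 h MDH3 was 0.27 ± 0.084 higher in the C719A than in G906D cells (adjusted p = 0.014), lost without C719A replicate B (0.19) or G906D replicate C (0.24) or with the 2 groups fitted alone (0.25). Its difference between the G906D strain and the WT at 1 h was -0.21 ± 0.083 (adjusted p = 0.055) although the libraries did not overlap, and it was called without G906D replicate A (-0.25) or WT replicate A (-0.25), by DESeq2 (-0.20) and under library size alone (-0.35). Before heat it was -0.076 ± 0.084 (adjusted p = 0.44), and -0.42 and called under library size alone. The difference of the C719A response at 1 h was 0.30 ± 0.12 (adjusted p = 0.051), and it was called without C719A 0 h or 1 h replicate A, without WT 0 h replicate A or B, or without WT 1 h replicate C, with values from 0.34 to 0.36.

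MDH2 makes oxaloacetate from malate in the cytosol, the first cytosolic step toward glucose, and its protein is one that the GID ubiquitin ligase removes when glucose returns. In the WT it was at 235, 498 and 259 CPM before heat, with replicate B above the other 2, then at 969, 885 and 983 CPM after 1 h and 909, 1075 and 1122 CPM after 2 h. The C719A libraries had 508, 722 and 580.1 CPM, 872, 989.7 and 837 CPM and 908, 899.9 and 865 CPM. G906D libraries had 282, 277 and 364 CPM, 1142, 1329.7 and 1339.95 CPM and 913, 797 and 724 CPM. Before heat each C719A library was above each WT and G906D library, at 1 h each G906D library was above each WT library, and at 2 h each C719A library was below each WT library. MDH2 was 1.82-fold higher in C719A than in WT cells at 0 h (0.87 ± 0.19, adjusted p = 6.1e-04), and -0.072 ± 0.19 and -0.22 ± 0.19 at 1 h and 2 h (adjusted p = 0.80 and 0.35). In the G906D strain it was -0.11 ± 0.19, 0.43 ± 0.19 and -0.35 ± 0.19 against the WT at the 3 times, none called (adjusted p = 0.65, 0.095 and 0.11), and the value at 0 h was 0.31 without WT replicate B. Under library size alone MDH2 was called lower there at 0 h (-0.43) and at 2 h (-0.50), and at 2 h also with the 2 groups fitted alone (-0.34).

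Within 1 h MDH2 rose 2.86-fold in the WT, 1.49-fold in the C719A and 4.13-fold in the G906D strain (1.52 ± 0.20, 0.58 ± 0.19 and 2.05 ± 0.20). The C719A response was smaller than that of the WT, with differences of -0.94 ± 0.27 at 1 h and -1.08 ± 0.27 at 2 h (adjusted p = 0.011 and 0.0032), and the first was not called with the groups compared fitted alone (-0.91). The rises in the C719A strain were not called without its 0 h replicate A (0.47 at 1 h and 0.45 at 2 h). MDH2 in the G906D strain fell from 1 h to 2 h (-0.65 ± 0.19, adjusted p = 0.026), a call lost without G906D 1 h or 2 h replicate B or C, with values from -0.64 to -0.57. The difference of the G906D from the WT response was 0.53 ± 0.27 at 1 h and -0.25 ± 0.27 at 2 h (adjusted p = 0.14 and 0.55), called without WT 0 h replicate A or under library size alone at 1 h (0.73 and 0.72) and without WT 0 h replicate B at 2 h (-0.67). Against the G906D strain, MDH2 in the C719A strain was 0.97 ± 0.19 before heat and -0.50 ± 0.19 at 1 h (adjusted p = 2.4e-04 and 0.044). The latter was lost without any of the 3 C719A replicates or without G906D replicate B or C, with values from -0.57 to -0.45, and under library size alone (-0.44).

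FBP1 removes a phosphate from fructose 1,6-bisphosphate, the last irreversible step that gluconeogenesis does not share with glycolysis. WT libraries had 15.9, 20.3 and 17.3 CPM before heat, 31.3, 28.7 and 30.4 CPM after 1 h and 25.3, 27.5 and 27.5 CPM after 2 h. The C719A libraries had 16.9, 15.6 and 19.4 CPM, 24.3, 21.3 and 23.1 CPM and 25.6, 27.8 and 28.7 CPM. G906D libraries had 11.9, 10.6 and 12.2 CPM, 23.7, 22.8 and 27.1 CPM and 23.5, 20.2 and 18.9 CPM. All G906D libraries were below all WT libraries at each of the 3 times, and the C719A libraries were below them only at 1 h. FBP1 was 1.55-fold lower in the G906D strain than in the WT at 0 h, 1.23-fold at 1 h and 1.28-fold at 2 h (-0.63 ± 0.12, -0.30 ± 0.11 and -0.36 ± 0.11, adjusted p = 6.4e-05, 0.036 and 0.0057). At 1 h this was not called without G906D replicate A or B or WT replicate A or C, with values from -0.29 to -0.25, nor without the genes of chromosome VII (-0.25) or with the 2 groups fitted alone (-0.28).

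FBP1 in the C719A strain was 1.32-fold lower than in the WT at 1 h (-0.40 ± 0.11, adjusted p = 0.0056) and 0.03 ± 0.11 at 2 h, with a 95% interval from -0.19 to 0.25. By 2 h it had risen 1.505-fold in the WT, 1.58-fold in the C719A and 1.81-fold in the G906D strain (0.59 ± 0.11, 0.66 ± 0.11 and 0.86 ± 0.12). The differences of its heat response from that of the WT were -0.35 ± 0.16 and 0.074 ± 0.16 in C719A cells and 0.33 ± 0.16 and 0.27 ± 0.16 in G906D cells at 1 h and 2 h, none called (adjusted p = 0.088, 0.73, 0.11 and 0.23), and the first was called without WT 0 h replicate B (-0.46). Library size alone called those of the G906D strain, at 0.54 and 0.46. FBP1 was higher in the C719A than in the G906D strain by 0.58 ± 0.12 before heat and 0.39 ± 0.11 at 2 h (adjusted p = 2.5e-04 and 0.0061).

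PCK1 turns oxaloacetate into phosphoenolpyruvate, the rate-limiting step of gluconeogenesis. In the WT it was at 20.04, 41.2 and 33.3 CPM before heat, 76.1, 75.1 and 91.04 CPM after 1 h and 203, 149 and 160.1 CPM after 2 h. The C719A libraries had 39.2, 48.3 and 47.3 CPM, 68.99, 66.6 and 75.1 CPM and 82.4, 84.4 and 86.2 CPM. The G906D libraries had 14.1, 14.6 and 20.2 CPM, 128, 159 and 166 CPM and 218, 188 and 156 CPM. Before heat the C719A libraries were the highest and the G906D libraries the lowest of the 3 strains, each group overlapping the WT in 1 library, and at 2 h every C719A library was below every other. PCK1 rose 9.33-fold within 1 h and 11.5-fold by 2 h in the G906D strain (3.22 ± 0.20 and 3.53 ± 0.20), 2.57-fold and 5.42-fold in the WT (1.36 ± 0.18 and 2.44 ± 0.18), and 1.56-fold and 1.87-fold in the C719A strain (0.64 ± 0.18 and 0.91 ± 0.18).

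From 1 h to 2 h PCK1 rose again in the WT, by 1.08 ± 0.17 (adjusted p = 3.3e-04), and was 0.26 ± 0.17 in the C719A and 0.31 ± 0.17 in G906D cells (adjusted p = 0.33 and 0.21). Against the WT, the C719A strain was 1.43-fold higher at 0 h (0.52 ± 0.18, adjusted p = 0.021) and 2.02-fold lower at 2 h (-1.02 ± 0.17, adjusted p = 2.4e-05). The call at 0 h was lost without WT replicate A (0.27) or C719A replicate B (0.46) or C (0.48). The G906D strain was 1.94-fold lower at 0 h (-0.96 ± 0.20, adjusted p = 1.8e-04) and 1.87-fold higher at 1 h (0.90 ± 0.17, adjusted p = 2.1e-04), and at 2 h 0.13 ± 0.17, with a 95% interval from -0.23 to 0.49.

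The heat response of PCK1 differed from that of the WT in both mutants, in opposite directions. It was smaller in the C719A strain, with differences of -0.72 ± 0.25 at 1 h and -1.53 ± 0.25 at 2 h (adjusted p = 0.033 and 5.2e-05), and larger in the G906D strain by 1.86 ± 0.26 and 1.09 ± 0.26 (adjusted p = 5.5e-05 and 0.0036). The difference in the C719A strain at 1 h was -0.72 and not called with the replicate block within each strain. It was also lost without C719A 0 h replicate B or C, C719A 1 h replicate A or B, WT 0 h replicate A or WT 1 h replicate C, with values from -0.71 to -0.47. The other 3 differences were called in every alternative run.

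SFC1 brings succinate made by the glyoxylate cycle into the mitochondrion in exchange for fumarate. Its WT levels were 9.41, 8.96 and 6.99 CPM before heat, 21.6, 22.6 and 23.6 CPM after 1 h and 19.4, 22.1 and 19.8 CPM after 2 h. C719A libraries had 11.1, 9.74 and 9.54 CPM, 20.2, 18.01 and 18.8 CPM and 19.8, 18.5 and 20.2 CPM. G906D libraries had 6.22, 6.17 and 8.84 CPM, 21.5, 21.1 and 19.97 CPM and 28.5, 22.2 and 22.2 CPM. The 9 unheated libraries lay between 6.17 and 11.1 CPM and the 18 heated ones between 18.01 and 28.5 CPM, without overlap in any strain. Within 1 h SFC1 rose 2.67-fold in the WT, 1.87-fold in the C719A and 2.97-fold in the G906D strain (1.42 ± 0.13, 0.91 ± 0.13 and 1.57 ± 0.14), and from 1 h to 2 h the changes were -0.15 ± 0.12, 0.035 ± 0.13 and 0.22 ± 0.12 (adjusted p = 0.41, 0.89 and 0.22).

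SFC1 was the one member not called in any of the 6 comparisons of a mutant with the WT, with values from -0.27 ± 0.15 to 0.26 ± 0.14 and adjusted p from 0.083 to 0.65. None of the 6 had an unadjusted p under 0.05, and DESeq2 called 1 of them, the G906D strain at 2 h (0.28). Library size alone called 2, the C719A strain at 1 h (-0.32) and the G906D strain at 0 h (-0.61), and without the genes of chromosome VII the G906D strain at 2 h was called (0.31). Before heat, SFC1 in the G906D strain against the WT was called without G906D replicate C (-0.45) or WT replicate C (-0.39). Between the mutants it was 0.53 ± 0.14 higher in the C719A strain before heat (adjusted p = 0.0042) and -0.32 ± 0.13 at 2 h (adjusted p = 0.045), where the call was lost without any C719A replicate in turn or G906D replicate A (-0.19 without the latter, in which SFC1 was at 28.5 CPM), and under library size alone (-0.19). At 1 h the C719A response was smaller than that of the WT (-0.51 ± 0.19, adjusted p = 0.039), which was not called with the replicate block within each strain (-0.52) or without C719A 0 h replicate A, C719A 1 h replicate B or C, WT 0 h replicate C, or WT 1 h replicate B or C, with values from -0.51 to -0.39. By 2 h the G906D response differed by 0.52 ± 0.19 (adjusted p = 0.052), and it was called under library size alone (0.71), by DESeq2 (0.55), without the genes of chromosome VII (0.53), or without G906D 0 h replicate C, G906D 2 h replicate B or C, WT 0 h replicate C or WT 2 h replicate B, with values from 0.58 to 0.70.

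Over the 27 libraries, which share strains and times, the log2 levels of the 7 members other than MDH3 correlated with each other at Pearson r from 0.61 (CIT2 and MLS1) to 0.94 (ICL1 and PCK1). MDH3 correlated with the 7 at r from -0.42 (SFC1) to -0.11 (MLS1). Of 5737 genes whose log2 CPM averaged 2 or more, those most like CIT2 were ACS1, which makes acetyl-CoA from acetate (r = 0.97), and the carnitine acetyltransferase genes YAT1 (0.97) and YAT2 (0.96). Those most like ICL1 were IME1 (0.97), AEP1 (0.96) and PPT2 (0.95), and those most like MLS1 were PET123 and EHD3 (0.94 each) and MRX15 (0.93). Closest to MDH2 were SPO24 (0.98), ISU1 (0.97) and YHR033W (0.97), and to FBP1 were NDC80 (0.96), SFP1 (0.96) and YIL055C (0.95). Closest to PCK1 were CMI8 (0.96), YHR140W and GDH3 (0.94 each), and to SFC1 were YAP5 (0.95), AEP1 and MRX19 (0.94 each). ATP2, RFS1 and AVT7 were most like MDH3 (0.92, 0.91 and 0.90). No other member was among the 3 most like genes of any member.

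Genes that supply or drain the cycle were counted in fixed lists. Of 15 related enzymes, among them the paralogs CIT1, CIT3, MDH1 and ICL2, the acetyl-CoA synthetase ACS1 and the pyruvate carboxylases PYC1 and PYC2, 11 rose and 1 fell in the WT by 2 h, with a median of 0.63. In the C719A strain at 2 h, 3 were higher and 11 lower than in the WT (median -0.41), and in the G906D strain 2 were higher and 12 lower (median -0.45), against medians of -0.03 and -0.01 for all genes. The shares of all genes called were 35.7% higher and 33.9% lower in the WT by 2 h, 27% higher and 26.7% lower, 17.3% higher and 18.4% lower and 27.5% higher and 28.9% lower in C719A against WT at 0 h, 1 h and 2 h, and 30.9% higher and 33.2% lower, 16.3% higher and 15% lower and 31.9% higher and 33.2% lower in G906D against WT, and the counts of all lists stand beside these. The aconitase gene ACO1 was -1.60 ± 0.16 in the C719A strain at 2 h (adjusted p = 9.8e-09). CIT3 was -1.995 ± 0.15 in the G906D strain at 2 h (adjusted p = 5.6e-11). ACS1, the gene most like CIT2, was 0.97 ± 0.22 in the C719A strain before heat and 3.31 ± 0.24 in the WT by 2 h (adjusted p = 7.7e-04 and 2.7e-11).

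Carriers and the carnitine shuttle, which move acetyl units, dicarboxylates and acids between compartments, were higher in the unheated C719A strain in 8 of 9 genes and lower in none (median 1.01). The acetate transporter gene ADY2 was 1.65 ± 0.40, YAT2 1.27 ± 0.18 and the carnitine carrier gene CRC1 1.25 ± 0.25 (adjusted p = 0.0013, 3.8e-06 and 1.7e-04). At 1 h, 6 were higher and none lower, and at 2 h 1 was higher and 2 lower, with medians of 0.59 and -0.24. The higher one at 2 h was the oxaloacetate carrier gene OAC1 (1.65 ± 0.14, adjusted p = 7.4e-10). The lower ones were ADY2 (-0.99 ± 0.38) and YAT1 (-0.85 ± 0.22, adjusted p = 0.031 and 0.0025). The G906D strain had 1 higher and 3 lower before heat, a median of -0.16 at 1 h, and 1 higher and 6 lower at 2 h (median -0.80), with ADY2 at -1.22 ± 0.38 and the carnitine acetyltransferase CAT2 at -1.53 ± 0.29 (adjusted p = 0.0074 and 5.8e-05). The higher carrier of the G906D strain at 2 h was again OAC1 (1.11 ± 0.14, adjusted p = 3.2e-07). In the WT by 2 h, 8 rose and OAC1 fell. Directly between the mutants, 8 of the 9 were higher in the C719A strain before heat and none lower (median 1.46).

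SIP4 encodes an activator that binds the element shown above. It was 2.01 ± 0.21 in the C719A strain against the WT before heat, 1.22 ± 0.18 at 1 h and 1.12 ± 0.18 at 2 h (adjusted p = 7.6e-08, 1.4e-05 and 1.3e-05), and it rose by 2.50 ± 0.21 in the WT by 2 h. In the G906D strain SIP4 was -0.39 ± 0.25, 0.45 ± 0.18 and 0.63 ± 0.18 (adjusted p = 0.17, 0.066 and 0.0041). CAT8, whose product activates SIP4, was 0.43 ± 0.13, -0.026 ± 0.13 and -0.37 ± 0.13 in C719A cells (adjusted p = 0.0082, 0.90 and 0.019) and -0.55 ± 0.13, -0.20 ± 0.13 and -0.94 ± 0.13 in G906D cells (adjusted p = 9.4e-04, 0.26 and 1.1e-06). ADR1 was 0.0063 ± 0.21, -0.041 ± 0.21 and -0.69 ± 0.21 in the C719A strain, of which only that at 2 h was called (adjusted p = 0.007), and -0.95 ± 0.22 and -1.29 ± 0.21 in the G906D strain at 0 h and 2 h (adjusted p = 5.3e-04 and 1.0e-05). SNF1 was -0.50 ± 0.10, -0.11 ± 0.10 and -0.40 ± 0.10 in the C719A strain at the 3 times (adjusted p = 2.6e-04, 0.40 and 0.0018). In G906D cells it was -0.40 ± 0.10, -0.09 ± 0.10 and -0.51 ± 0.10 (adjusted p = 0.0016, 0.53 and 1.1e-04). Of the 10 genes of the Snf1 kinase and its activators, 2, 1 and 1 were higher and 3, 1 and 7 lower in the C719A strain at 0 h, 1 h and 2 h, and 2, 2 and 2 were higher and 6, 1 and 6 lower in the G906D strain, where those higher were SNF4 and SIP2, on chromosome VII, at 0 h and 1 h and SNF4 and SIP4 at 2 h.

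Of 6 genes of glucose repression, 3, 3 and 2 were lower and none higher in the C719A strain at 0 h, 1 h and 2 h, and 2, 3 and 3 higher and 2, 1 and 2 lower in the G906D strain, those higher being MIG1, MIG2 and HXK2 of chromosome VII. MIG1, on chromosome VII, was -0.028 ± 0.15, -0.091 ± 0.15 and 0.17 ± 0.15 in the C719A strain, none called, and 0.59 ± 0.15 and 0.36 ± 0.15 in the G906D strain at 1 h and 2 h (adjusted p = 0.004 and 0.037). HXK2, the hexokinase that takes part in repression and also on chromosome VII, was -0.33 ± 0.11 and -0.37 ± 0.11 in the C719A strain at 0 h and 1 h (adjusted p = 0.011 and 0.009), and 0.98 ± 0.11, 1.004 ± 0.11 and 1.02 ± 0.11 in the G906D strain, near the median of its chromosome there.

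Among 6 retrograde regulators, 1 was higher and 3 lower in the C719A strain before heat, and 1 higher and 5 lower in the G906D strain. RTG1 was -1.29 ± 0.17 in the C719A strain before heat and -0.78 ± 0.17 in G906D cells (adjusted p = 1.7e-06 and 3.4e-04), and RTG3 -0.11 ± 0.10 and -0.75 ± 0.10 (adjusted p = 0.38 and 1.4e-06). RTG2, on chromosome VII, was 0.30 ± 0.071 and 1.01 ± 0.071 (adjusted p = 9.1e-04 and 2.3e-11). After heat 1 of the 6 was higher and none lower in the C719A strain at 1 h and at 2 h. In C719A cells RTG1 was then -0.23 ± 0.17 and -0.36 ± 0.17 (adjusted p = 0.29 and 0.064). RTG2 was 0.28 ± 0.071 and 0.14 ± 0.071 (adjusted p = 0.0033 and 0.10), and RTG3 0.09 ± 0.099 and 0.27 ± 0.099 (adjusted p = 0.50 and 0.025). In G906D cells RTG1 was -0.32 ± 0.17 and -0.21 ± 0.16 (adjusted p = 0.14 and 0.28). RTG2 was 1.05 ± 0.071 and 0.93 ± 0.071 (adjusted p = 1.3e-11 and 7.4e-11), and RTG3 -0.12 ± 0.099 and -0.29 ± 0.099 (adjusted p = 0.37 and 0.012).

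Of 6 other genes under retrograde control, CIT1, ACO1, PYC1, DLD3, IDH1 and IDH2, of which the first 3 are also among the related enzymes, 5 were lower and none higher in the C719A strain at 2 h (median -0.92). The isocitrate dehydrogenase genes IDH1 and IDH2 were -0.83 ± 0.13 and -1.16 ± 0.15 (adjusted p = 7.5e-06 and 6.0e-07). In the G906D strain DLD3, a lactate dehydrogenase gene, was -1.33 ± 0.22 at 1 h and -1.11 ± 0.22 at 2 h (adjusted p = 4.2e-05 and 1.2e-04), beside -1.02 ± 0.26 and -0.74 ± 0.26 for CIT2, while IDH2 was 0.66 ± 0.15 and 0.74 ± 0.15 (adjusted p = 0.0013 and 1.2e-04).

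The GID ubiquitin ligase degrades the Fbp1, Mdh2, Icl1 and Pck1 proteins when glucose returns. Of 11 GID genes, 3 were higher and 5 lower in the C719A strain before heat and none was higher and 8 lower at 2 h, and in the G906D strain 8 were lower and none higher at 0 h and at 2 h. Of all genes, 28.9% were lower in the C719A strain at 2 h and 33.2% in the G906D strain at 0 h and at 2 h. GID10 and GID11 encode receptors that bring proteins to the ligase. GID10, on chromosome VII, was 1.32 ± 0.33 in the C719A strain before heat, and GID11 was -1.40 ± 0.17 in the G906D strain before heat and -1.22 ± 0.16 at 2 h (adjusted p = 0.0018, 1.7e-07 and 6.4e-07). Among the lower GID genes of the unheated C719A strain, VID30, on chromosome VII, was -0.90 ± 0.14 and VID28 -0.88 ± 0.13 (adjusted p = 1.2e-05 and 6.0e-06). VID24, the receptor for the 4 enzymes, rose by 1.57 ± 0.17 in the WT by 2 h (adjusted p = 1.0e-08). In the WT by 2 h, 8 of the 11 had risen and none had fallen (median 0.61).

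Other genes under glucose repression and those of peroxisomal fatty acid oxidation, which feeds the cycle with acetyl-CoA, were counted likewise. Of 12 glucose-repressed genes, 9 rose and 1 fell in the WT by 2 h (median 1.60), and 3, 2 and 2 were higher and 3, 2 and 6 lower in the C719A strain at 0 h, 1 h and 2 h. The G906D strain had 1 higher at each time and 9, 4 and 9 lower. The invertase gene SUC2 was -2.23 ± 0.26 in the C719A and -2.27 ± 0.26 in the G906D strain at 2 h (adjusted p = 1.0e-07 and 5.4e-08), and the hexose transporter gene HXT6 was 1.60 ± 0.14 in the C719A strain before heat (adjusted p = 4.8e-09). HXT6 and HXT7 are near-identical copies, and how their shared reads were assigned was not given in the sources used here. Of 12 peroxisomal genes, all rose in the WT by 2 h (median 1.56), and none was higher and 10 lower at 2 h in each mutant (medians -0.62 for C719A and -0.99 for G906D). Of all genes, 35.7% rose in the WT by 2 h, and 28.9% were lower in the C719A and 33.2% in the G906D strain at 2 h. At 1 h, in contrast, 6 were higher and none lower in the C719A strain, led by 0.73 ± 0.17 for the acyl-CoA oxidase gene POX1, on chromosome VII (adjusted p = 0.0014). All these lists were chosen with earlier results of the same libraries known, so their counts are a description.

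**Figure D4:**
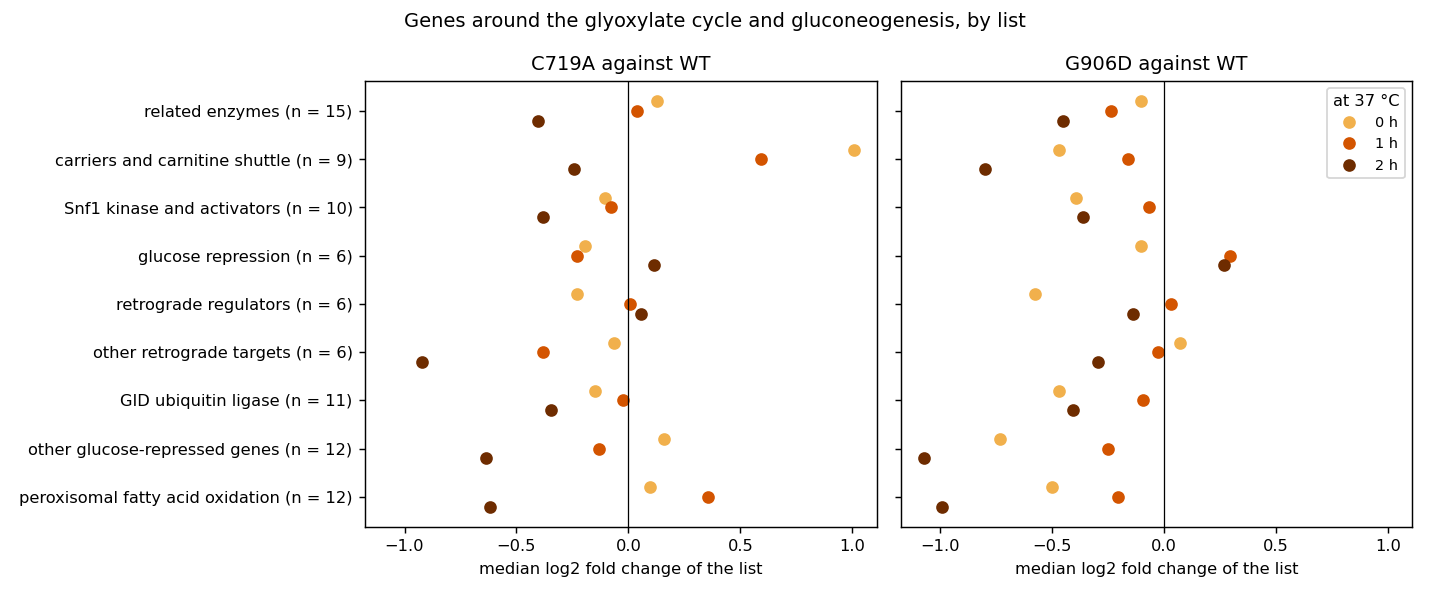
Median log2 fold change of 9 lists of genes around the members (number of genes tested in brackets) in the C719A (left) and G906D (right) strains against the WT at 0 h, 1 h and 2 h at 37 °C (light to dark). The carriers lie at 1.01 in the unheated C719A strain, and the other glucose-repressed and peroxisomal genes lie below -0.6 at 2 h in both mutants.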

How the data were processed

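RNA was sequenced from 27 libraries. The authors deposited whole-number counts per gene for each library, with FPKM (fragments scaled to gene length and library total) made from the same counts beside them, and the submitters' processing notes name TopHat2 and Bowtie2. The genome build, the annotation and the counting tool are not given in the sources used here. Counts were tested with edgeR 4.0.16 in R 4.3.3 (filterByExpr, TMM, quasi-likelihood fit of the 9 groups, 18 residual degrees of freedom before moderation) in 22 comparisons, adjusted by Benjamini-Hochberg over 6386 genes. Limma 3.58.1 on log2 FPKM with a pseudocount of 1 or 0.1, DESeq2 1.42.0, other filters and scalings, the replicate letter as a block, and leaving out each library were alternatives. The script was tested on simulated data. FPKM served for levels between genes. Names, positions and upstream sequences came from RefSeq R64, which held 6045 of the IDs. Totals are given in the report, and replicates differed beyond counting error in all 27 pairs (chi-square per degree of freedom 6.93 to 119).

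Samples were grouped by the strain and time in the labels. Libraries with the same letter deviated together (every correlation over 0.1) from 0 h to 1 h in the WT (0.148 to 0.352) and from 0 h to 1 h and 1 h to 2 h in the C719A strain (0.123 to 0.457 and 0.125 to 0.374). No other comparison had every correlation over 0.1, though from 0 h to 2 h in the C719A strain they ran from 0.0709 to 0.327. No label says that a letter marks a shared culture. The members, lists and tests were chosen with earlier results of these data known. Genes named in the text were drawn from the 8 members, from each list the 3 called genes with the largest change, 9 fixed regulators, and for each member the 3 genes most correlated with it. The 9 regulators are given for each mutant against the WT at each time, whether or not they were called.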

Additional observations from a re-analysis of the deposited data

Results flagged for a closer look

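These values were singled out because the response to heat differed between strains in the test of the difference itself (edgeR, adjusted over all genes), each with the log2 difference from the response of the WT. At 1 h the response of the C719A strain differed by -0.94 in MDH2, -0.72 in PCK1 and -0.51 in SFC1. At 2 h it differed by -1.06 in CIT2, -0.49 in MLS1, -0.44 in MDH3, -1.08 in MDH2 and -1.53 in PCK1. The response of the G906D strain differed at 1 h by 0.94 in ICL1, 0.57 in MLS1 and 1.86 in PCK1, and at 2 h by 0.54 in ICL1, 0.57 in MLS1, 1.09 in PCK1 and -0.60 in MDH3. Of the 15 values, 8 were above 0.7 in size. The levels before heat enter each of them, and WT replicate B of 0 h, which stood high in MDH2, CIT2 and PCK1, is part of all 15. No group had more than 3 libraries, so none was searched for a library far from the others.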

How the results depend on the processing

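Of 176 member values, 106 were called, and 78 of these kept direction and call in every alternative. In at least 1 alternative, 26 lost the call while keeping their direction. In addition 4, all of MDH3 and 2 of them among the 26, changed sign. None of these 4 was called under library size alone, so their calls were lost there too. With library size alone, limma on log2(FPKM + 0.1) and limma on log2(FPKM + 1), MDH3 was at 0.035, 0.039 and 0.039 in the WT at 1 h against 0 h, 0.10, 0.10 and 0.10 in the G906D strain at 1 h, 0.077, 0.076 and 0.076 in the C719A strain at 2 h, and 0.072, 0.071 and 0.071 in the G906D strain at 2 h. These alternatives leave out the TMM factor. Of values not called, 20 changed sign somewhere.

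Of the 8 members, the number called moved as follows. With the groups compared fitted alone it was 3 for C719A against WT at 0 h, 3 for 2 h against 1 h in the C719A and 2 in the G906D strain, and 0 for the C719A heat response at 1 h, where 4 had an unadjusted p under 0.05 in that fit and DESeq2 over all groups called 4. These fits hold fewer libraries. With library size alone it was 7 for G906D against WT at 0 h, 5 for the G906D heat response at 1 h and 3 for C719A against G906D at 2 h, where both limma fits also gave 3. It also went from 4 to 6 for the G906D heat response at 2 h, from 5 to 7 for C719A against G906D at 0 h and from 2 to 3 for C719A against WT at 1 h. Leaving out 1 library gave 3 to 5 for C719A against G906D at 2 h, 0 to 1 for 2 h against 1 h in each mutant, 1 to 5 for the C719A heat response at 1 h and 3 to 5 at 2 h. Over all genes, and apart from leaving out libraries, only the groups fitted alone moved a count by over 1.5 times, to 594 from 1535 (WT, 2 h against 1 h), 1843 from 973 (the same in C719A), 621 from 1030 (in G906D) and 801 from 1880 (G906D heat response at 1 h).

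The replicate block within each strain left 1 member called in the C719A heat response at 1 h, and lost MDH3 in the WT at 2 h against 0 h (0.19). As a block over all strains the letter also lost MDH3 there (0.19) and SFC1 in C719A against G906D at 2 h (-0.32). The block changed no other call of a member. The lowest member count was 88, so for the low members MLS1, SFC1 and FBP1 counting error is part of the spread of replicates.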
